A study of Mus musculus with 3 samples.

Results

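Integrins, selectins and their partners of the immunoglobulin (Ig) family are the surface proteins with which cells hold on to each other and to the extracellular matrix. This account covers 35 of these genes in normal mouse thymus: 18 integrin alpha chains, 8 integrin beta chains, 6 Ig-family ligands of integrins, the endothelial selectins Sele and Selp, and Selplg, which encodes the selectin ligand PSGL-1. They were taken by symbol from a list, and all 35 were found among 52636 gene identifiers in the counts. The study set lymphomas without Cic against thymus of littermates. The lymphomas are not analysed here, so the values describe 3 control thymi of C57BL/6 mice whose genotype is given as Cic flox/flox with tamoxifen (TAM). The labels name neither an age nor a Cre driver.

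An integrin is a pair of 1 alpha and 1 beta chain, and the pair decides what it binds. Pairs with the beta-2 chain are found on leukocytes and bind ICAM proteins, pairs with alpha-4 bind VCAM-1, MAdCAM-1 or fibronectin, and many beta-1 pairs bind laminin, collagen or fibronectin. In the thymus these contacts hold developing T cells on epithelium, dendritic cells and matrix, and progenitors enter the organ from blood vessels through PSGL-1 and P-selectin.

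The measurements are RNA-seq read counts of polyadenylated RNA in 3 libraries, named thymus 1, 2 and 3 by their labelled replicate number. Whether they come from separate animals is not stated, so differences between thymi are differences between these libraries. They hold 25408442 to 30414788 reads assigned to genes on the transcribed strand. The members took 0.238%, 0.237% and 0.216% of these reads in thymus 1, 2 and 3. Levels are CPM, counts relative to library size with TMM scaling between libraries. Orders, shares and ratios of different genes use CPM per kilobase of exon unless another length is named. Thresholds in CPM, and words such as low or moderate beside CPM values, take no account of gene length. A count of 3, taken as the limit of detection in 1 library, equals 0.0985 to 0.122 CPM. Errors are SDs over the 3 libraries. In whole tissue, fewer cells of a type and less RNA per cell cannot be told apart. Of the 35 members 27 reached 1 CPM in every library, 7 stayed below it in every library, and Itga8 did neither. Among 21896 protein-coding genes, 58.4% reached 1 CPM in every library. A total of 17 members reached 10 CPM and 6 reached 100 CPM in every library.

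The promoters of 4 members are shown because the results below set these genes side by side: the integrin partners Itga4 and Itgb7, the LFA-1 ligand Icam1, which was abundant, and Madcam1, the ligand of the alpha-4 beta-7 pair, which was nearly absent. They are windows of 300 bases around the RefSeq start site on GRCm38.p6, of which the last 50 lie after it, given 5′ to 3′ on the gene's strand. Capitals mark matches on either strand to 5 motifs, namely the RUNX core TGNGGT, the ETS core CCGGAA, the NF-kB motif (GGG, any 2 bases, then TTTCC), the TATA box TATAAA and the GC box GGGCGG.
Itga4, chr2:79255176-79255475, plus strand: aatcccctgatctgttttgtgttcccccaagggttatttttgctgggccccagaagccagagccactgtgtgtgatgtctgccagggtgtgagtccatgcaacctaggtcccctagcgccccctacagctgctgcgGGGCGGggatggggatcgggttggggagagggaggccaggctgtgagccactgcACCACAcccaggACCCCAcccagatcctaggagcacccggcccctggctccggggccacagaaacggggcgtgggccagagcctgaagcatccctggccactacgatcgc
Itgb7, chr15:102231886-102232185, minus strand: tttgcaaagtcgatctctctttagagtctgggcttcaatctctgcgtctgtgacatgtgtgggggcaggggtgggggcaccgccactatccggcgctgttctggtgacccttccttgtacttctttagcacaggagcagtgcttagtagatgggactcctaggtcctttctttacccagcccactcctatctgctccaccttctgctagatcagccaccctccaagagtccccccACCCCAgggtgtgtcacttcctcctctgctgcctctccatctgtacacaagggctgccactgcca
Icam1, chr9:21015690-21015989, plus strand: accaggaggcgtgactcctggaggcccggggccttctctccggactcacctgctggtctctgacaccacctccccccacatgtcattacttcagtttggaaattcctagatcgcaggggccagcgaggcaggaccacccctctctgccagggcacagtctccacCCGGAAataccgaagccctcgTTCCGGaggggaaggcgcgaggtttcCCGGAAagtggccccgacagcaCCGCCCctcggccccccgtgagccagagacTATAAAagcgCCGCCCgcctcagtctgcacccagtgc
Madcam1, chr10:79664309-79664608, plus strand: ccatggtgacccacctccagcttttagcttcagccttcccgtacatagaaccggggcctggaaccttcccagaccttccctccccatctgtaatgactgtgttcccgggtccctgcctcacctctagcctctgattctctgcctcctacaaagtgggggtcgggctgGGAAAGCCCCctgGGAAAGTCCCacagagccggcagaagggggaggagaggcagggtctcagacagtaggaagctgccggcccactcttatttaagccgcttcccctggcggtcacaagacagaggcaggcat

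In these windows the RUNX core occurred at -60 and -48 in Itga4 and at -15 in Itgb7, counted from the start site to the motif's first base. Icam1 held 3 ETS cores, at -86, -65 and -39, and Madcam1 held 2 NF-kB matches, at -83 and -70. The motifs were chosen with the expression values known, none of the marked matches overlapped another, and a match is a description of letters, not a site in use. RefSeq windows were found for 24 members, 26 windows in all. Of these members 9 held the RUNX core, 3 the ETS core, 1 the NF-kB motif, 2 the TATA box and 11 the GC box. Over all 32851 windows of that length the shares with a match were 45.8%, 14.9%, 1.63%, 13.6% and 35.7% in the same order.

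The leukocyte integrin LFA-1 gave the strongest signal of the family. Itgal, its alpha chain, was at 598, 566 and 564 CPM in thymus 1, 2 and 3, or 87.7 ± 2.94 CPM per kilobase (SD, n = 3). Itgb2, the beta-2 chain, was at 263, 264 and 242 CPM, or 84.0 ± 4.07 CPM per kilobase. The 3 libraries lay close together for both genes, with a coefficient of variation of 3.36% for Itgal and 4.84% for Itgb2. Itgal alone made up 61.5% ± 0.824 of the summed level per kilobase of the 18 alpha chain genes, and Itgb2 45.8% ± 1.77 of that of the 8 beta chain genes.

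The other alpha chains that pair with beta-2 were far lower. Itgax, the dendritic cell chain of the CD11c antigen, was at 19.6, 16.1 and 11.2 CPM and was lowest in thymus 3. Itgad was at 10.6, 9.80 and 8.31 CPM, also lowest in thymus 3. Itgam, the chain of Mac-1 on myeloid cells, was at 3.58, 3.78 and 3.44 CPM, with libraries that hardly differed. Exons of Itgam share 3450 bases with the gene Gm49368 on the same strand, where reads are ambiguous and not counted. Per kilobase of exon Itgam was at 0.717, and at 2.13 when the shared stretches were taken out of its length. Of the 50-base stretches of Itgad 19.7% occur in transcripts of other genes, mainly Itgax, and of those of Itgax 8.02%, mainly in Itgad. Reads that map to more than 1 place are not counted, so the levels of both are uncertain and may be understated.

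Within each library the Itgal and Itgb2 densities were nearly equal. The ratio of Itgal to Itgb2 per kilobase was 1.06, 0.997 and 1.08 in thymus 1, 2 and 3, a mean of 1.05 ± 0.0437 (SD, n = 3). With Itgam, Itgax and Itgad added to Itgal it was 1.12 ± 0.0414. Per kilobase of the longest protein-coding transcript, in place of all exons joined, these ratios were 1.28 and 1.36. RNA ratios say nothing of protein pairs, which form after translation.

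The alpha-4 chain, receptor for VCAM-1 and MAdCAM-1, came second among alpha chains. Itga4 was at 272, 255 and 253 CPM, or 18.6 ± 0.744 CPM per kilobase, and its share of the alpha chain sum was 13.0% ± 0.161. Its partners differed in level. Itgb1, the common beta-1 chain, was at 282, 240 and 292 CPM, or 66.5 ± 6.83 CPM per kilobase, high in thymus 1 and 3 and low in thymus 2. Itgb7, the partner in the gut-homing pair, was at 59.6, 58.5 and 51.2 CPM, or 20.4 ± 1.65 CPM per kilobase, with thymus 3 lowest. The ratio of Itga4 to Itgb7 per kilobase was 0.904, 0.865 and 0.979, and that of Itga4 to Itgb1 was 0.282, 0.310 and 0.252. By the longest coding transcript the mean ratios were 1.27 for Itga4 to Itgb7 and 0.377 for Itga4 to Itgb1, so which of Itga4 and Itgb7 was higher depends on the length used.

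Itgae, the alpha-E chain that pairs with beta-7 and binds E-cadherin, was at 19.8, 24.2 and 15.8 CPM, highest in thymus 2 and lowest in thymus 3. Its ratio to Itgb7 per kilobase was 0.2003, 0.251 and 0.186. The gene of its ligand, Cdh1, was at 31.5 ± 2.64 CPM (SD, n = 3), or 6.90 ± 0.576 CPM per kilobase, against 4.35 ± 0.926 CPM per kilobase for Itgae.

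**Figure D1:**
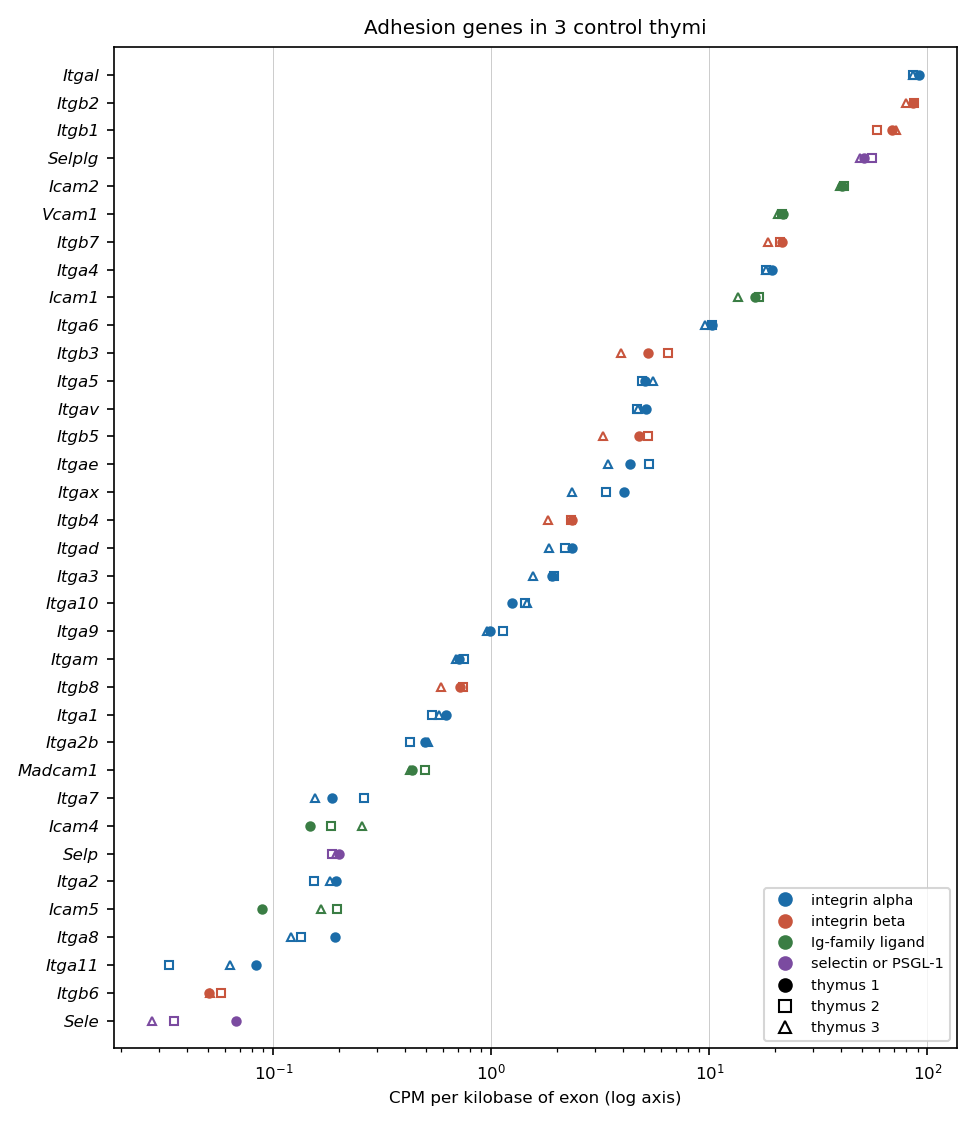
Level of each of the 35 adhesion genes in CPM per kilobase of exon (log axis), 1 symbol per thymus and colour by family, in the order of the mean. Itgal and Itgb2 stand at the top near 87.7 and 84.0, and Sele at the bottom at 0.0435.

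Laminin and fibronectin receptors followed. Itga6, a laminin receptor chain that pairs with beta-1 or beta-4, was at 92.3, 92.4 and 85.6 CPM, with thymus 3 a little below the other two. Its mean was 9.98 ± 0.429 per kilobase of joined exons and 20.9 per kilobase of the longest coding transcript. Its ratio to Itgb1 was 0.152 ± 0.0211 by joined exons and 0.297 by the longest coding transcript. Itga5, the fibronectin receptor chain, was at 24.9, 24.2 and 27.2 CPM. It was highest in thymus 3, unlike most other alpha chains. Itga3, another laminin receptor chain, was at 10.9, 11.03 and 8.83 CPM, and Itgb4, the beta chain of epithelial hemidesmosomes, at 16.3, 16.2 and 12.7 CPM. Both were lowest in thymus 3.

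The RGD-binding alpha-v group was present at moderate levels. Itgav was at 54.8, 49.9 and 50.6 CPM, or 4.82 ± 0.249 CPM per kilobase, with thymus 1 highest. Among its possible partners Itgb3 was at 30.9, 38.0 and 23.3 CPM, and Itgb5 at 16.9, 18.5 and 11.6 CPM. Both were highest in thymus 2 and lowest in thymus 3. Itgb8, whose pair with alpha-v activates latent TGF-beta, was at 7.91, 8.17 and 6.52 CPM. Itgb6, a partner of alpha-v in epithelia, was at 0.361, 0.409 and 0.365 CPM and below 1 CPM in every library. The ratio of Itgav to Itgb3 varied between libraries, with 0.975, 0.721 and 1.196 in thymus 1, 2 and 3. Itga2b, which pairs with Itgb3 on platelets, was at 2.69, 2.32 and 2.80 CPM, in another order than Itgb3. The differences between libraries for Itga2b were not beyond counting noise (adjusted p 0.613, edgeR, Poisson goodness of fit).

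The 4 collagen receptor alpha chains were low. Itga1 was at 11.5, 9.98 and 10.7 CPM, Itga10 at 6.47, 7.39 and 7.54 CPM, and Itga2 at 1.38, 1.09 and 1.30 CPM. Itga11 had 13, 5 and 8 counts, above the 3-count limit but below 1 CPM in every library. Itga10 shares 1739 bases of exon with Gm42957 on the same strand, where reads are ambiguous. Itga9, which binds tenascin and other ligands, was at 7.55, 8.68 and 7.37 CPM. Itga7, a laminin receptor chain of muscle, was at 1.51, 2.11 and 1.26 CPM, and Itga8, which binds nephronectin, at 1.41, 0.987 and 0.891 CPM. Together the 4 highest alpha chains made up 85.2% of the alpha chain sum, and the 4 highest beta chains 96.0% of the beta chain sum, both per kilobase.

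**Figure D2:**
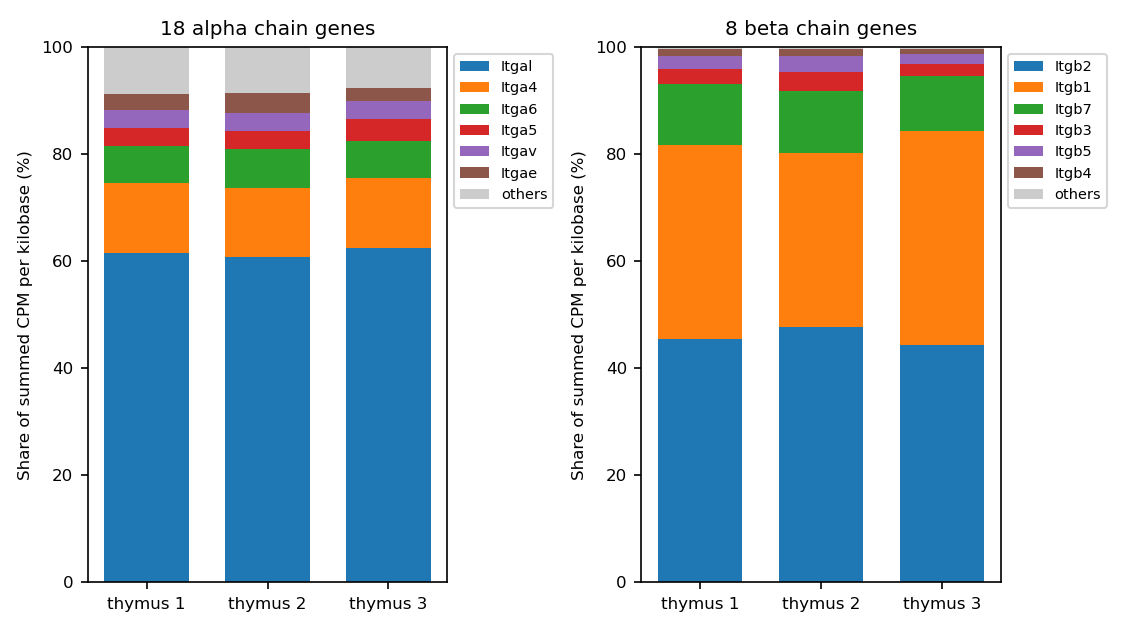
Share of each gene in the summed CPM per kilobase of the 18 alpha chain genes (left) and the 8 beta chain genes (right), 1 stacked bar per thymus, with the 6 highest genes named. Itgal takes 60.8% to 62.4% of the alpha chain sum in every thymus, and Itgb2 with Itgb1 most of the beta chain sum.

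Of the ligands on other cells, ICAM-2, VCAM-1 and ICAM-1 were well expressed, and the 3 others were below 1 CPM in every library. Icam2, a ligand of LFA-1 on endothelium and leukocytes, was at 76.9, 78.9 and 75.4 CPM, or 40.5 ± 0.910 CPM per kilobase. Its coefficient of variation of 2.25% was the lowest of the 35 members. Vcam1, the ligand of alpha-4 beta-1, was at 194, 190 and 183 CPM, and Icam1, the main inducible LFA-1 ligand, at 70.4, 73.4 and 59.1 CPM. All 3 of these ligands were lowest in thymus 3, Icam2 by the least. Vcam1 stood at 21.3 ± 0.614 per kilobase of joined exons and at 54.5 per kilobase of the longest coding transcript, and Icam1 at 15.5 ± 1.73 and 26.7 on these lengths.

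Madcam1, the vascular address of the gut, had 19, 21 and 15 counts, or 0.649 ± 0.0579 CPM. Icam5, an ICAM of neurons in the forebrain, had 8, 17 and 12 counts, and Icam4, known from red cells, 5, 6 and 7. In the ICAM cluster on chromosome 9 the levels per kilobase of joined exons were 15.5 for Icam1, 0.196 for Icam4 and 0.1501 for Icam5. Without stretches shared with other transcripts they were 17.9, 2.24 and 0.195. In all 3 genes these stretches are shared mainly with a gene on the opposite strand, and in Icam4 they make up 91.25%. Reads there still count for the member in the reverse-strand column, so the shorter length overstates the level of Icam4. Icam1 (21015985 to 21028817, GRCm38) ends 0.555 kilobases before Icam4 (21029373 to 21030595), which lies 1.48 kilobases before Icam5 (21032073 to 21039036), all on the plus strand. The antisense gene Gm47079 overlaps exons of Icam1, Icam4 and Icam5. It had 0, 2 and 2 counts on its own strand.

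Genes of 4 leukocyte integrin chains lie on chromosome 7. Itgal (127296260 to 127335138, plus strand) lies 728 kilobases from Itgam, Itgam 11.1 kilobases from Itgax and Itgax 3.72 kilobases from Itgad. Their levels per kilobase were 87.7 for Itgal, 0.717 for Itgam, 3.26 for Itgax and 2.12 for Itgad. Without shared stretches the last 3 were closer to each other, at 2.13, 3.54 and 2.64. Itga2 and Itga1 adjoin on chromosome 13 with 20.995 kilobases between them, and Sele and Selp on chromosome 1 with 57.6 kilobases.

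The selectin ligand was abundant while the endothelial selectins were not. Selplg was at 219, 238 and 209 CPM, or 51.9 ± 3.44 CPM per kilobase, with thymus 2 highest and thymus 3 lowest. Selp, the P-selectin of platelets and endothelium, had 27, 24 and 21 counts, or 0.851 ± 0.0345 CPM. Sele, the E-selectin of inflamed endothelium, had 6, 3 and 2 counts, at or under the 3-count limit in thymus 2 and 3, and was the lowest member per kilobase at 0.0435 ± 0.0212 CPM. In a list of selectin-related genes 14 of 16 reached 1 CPM in every library. Among them Spn, a sialomucin, was at 37.9 ± 1.89 and Slc35c1, the GDP-fucose transporter, at 19.1 ± 1.31 CPM per kilobase.

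In the order of levels per kilobase, the 10 highest members were Itgal, Itgb2, Itgb1, Selplg, Icam2, Vcam1, Itgb7, Itga4, Icam1 and Itga6. The log2 difference between Itgal and Itgb2 within libraries was 0.06 ± 0.06 (SD, n = 3), barely beyond its spread. Vcam1 and Itgb7 did not differ beyond their spread, at 0.07 ± 0.08, and neither did any neighbours in the row Itgb3, Itga5, Itgav, Itgb5 and Itgae. Of the 34 neighbouring pairs in the order 20 differed by more than the SD of their difference. The same 10 genes were the highest by the longest coding transcript, but Selplg led them there with 119 per kilobase and Itgal followed with 110. Beside Selplg, Vcam1, Icam1 and Itga6, that length raised 4 more levels by over 1.5 times, to 0.977 for Itga1, 0.757 for Itga2b, 0.404 for Itga7 and 7.34 for Itgav. No test was made of the order, since an exact two-sided sign-flip test on 3 libraries cannot go below p = 0.25.

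**Figure D3:**
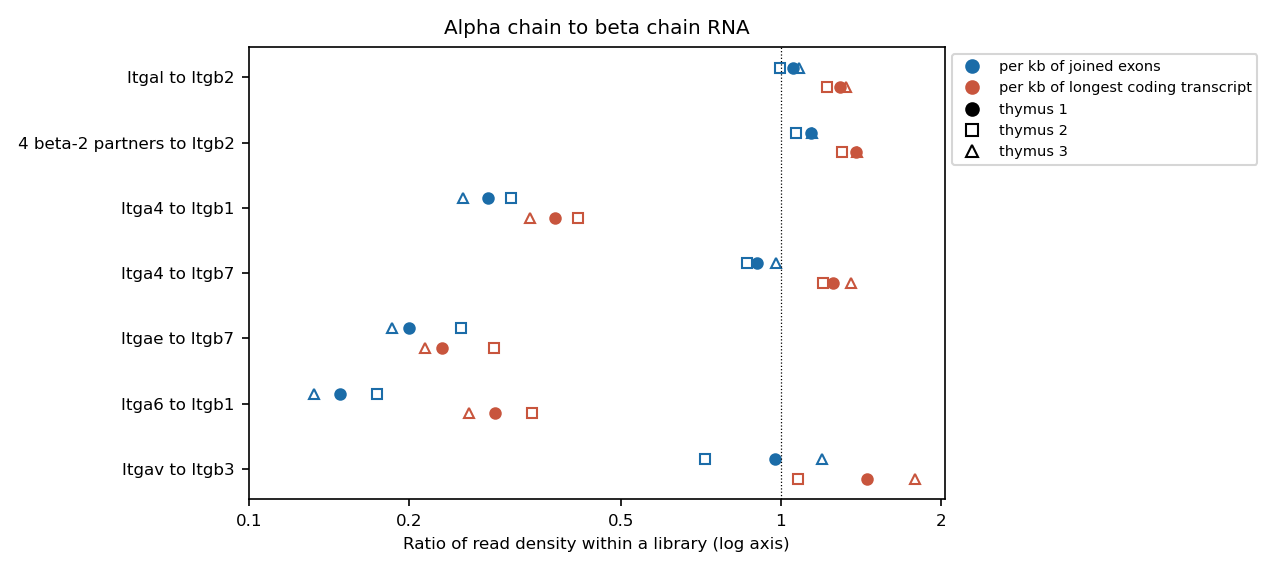
Ratio of alpha chain to beta chain read density within each thymus (log axis), per kilobase of all exons joined and per kilobase of the longest coding transcript, with the dotted line at equality. Itgal to Itgb2 averages 1.05 and 1.28 on these lengths, and Itga6 to Itgb1 moves the most, with 0.152 and 0.297.

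The remaining question was how far the thymi differed from each other. Of the 35 members 31 passed the filter on low counts, and the 4 that did not were Itga11, Icam4, Icam5 and Sele. In edgeR's quasi-likelihood test with Benjamini-Hochberg adjustment over all 16548 genes, 0 of the 31 varied more between thymi than genes of like abundance, where 0.0604% of all genes did. Negative binomial goodness of fit called 0 of the 31 (0.737% of all genes), and DESeq2 marked 0 as dispersion outliers (0.489%). At an unadjusted p under 0.05 there were 4 members, Itgb3, Itgax, Itgb5 and Itgae, against 4.42% of all genes. Their adjusted p was 0.984 each (edgeR). Without the filter on low counts, over 30857 genes, Itgb3 was called with an adjusted p of 0.0220 (edgeR). Its adjusted p ranged from 0.0220 to 0.983 over 10 alternatives.

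These 4 genes had in common that thymus 3 was lowest. The highest level was 1.63 times the lowest for Itgb3, 1.74 times for Itgax, 1.60 times for Itgb5 and 1.54 times for Itgae. Itgax was highest in thymus 1 and the other 3 genes in thymus 2.

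Variation beyond counting noise was found for 17 of the 31 members (edgeR, Poisson goodness of fit, Benjamini-Hochberg 0.05), against 43.4% of all genes. Leaving out thymus 1 gave 13, leaving out thymus 2 gave 14, and leaving out thymus 3 gave 8. The median coefficient of variation was 8.92% over the 31 members and 9.06% over all genes tested. Itgal, Itga4 and Itgb2 were among the 17 although their coefficients of variation were under 5%. Itga8, with few counts, was not among them at 25.2%. This test detects smaller spreads at higher counts, and the 43.4% is not matched for level. Among the 6 members of at least 100 CPM, Itgb1 had the widest spread, 10.3%, and its highest level, in thymus 3, was 1.22 times its lowest, in thymus 2.

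**Figure D4:**
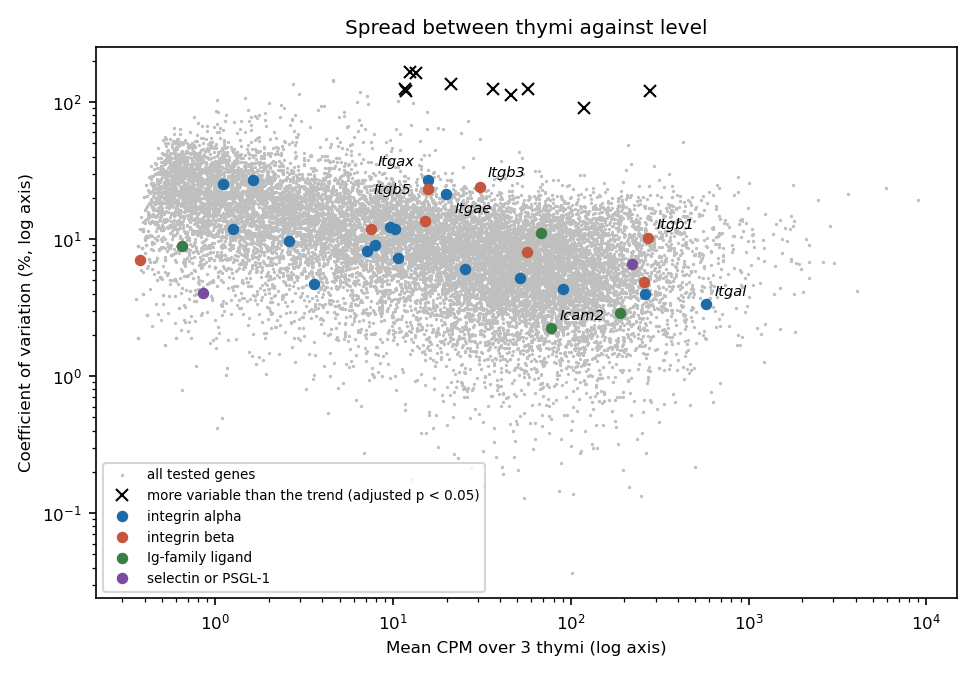
Coefficient of variation over the 3 thymi (percent, log axis) against mean CPM (log axis) for all tested genes (grey), genes more variable than the trend (crosses) and the 31 tested adhesion genes (coloured by family). The adhesion genes lie inside the grey cloud, with Itgax highest among those above 10 CPM at 26.8% and Icam2 lowest at 2.25%.

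By direction, 22 of the 31 tested members were lowest in thymus 3, where 39.7% of all genes were, and 4 were highest there, where 37.9% of all genes were. In thymus 1, 12 members were highest (24.1% of all genes) and 2 lowest (24.3%), and in thymus 2, 15 were highest (38.0%) and 7 lowest (36.0%). The log2 level of each gene was also set against its own mean. The members' median deviation in thymus 1 and in thymus 2 was 0.05, and in thymus 3 −0.08, while the median over all genes tested lay within 0.01 of 0 in each library. With the trend on GC content of transcripts removed from each library, 23 of the 31 were lowest in thymus 3 (38.7% of all genes) and the median there was −0.07. The 4 members highest in thymus 3 were Itga2b, Itga5, Itga10 and Itgb1. These counts are a description of 3 libraries and carry no test, and they were not repeated with another scaling between libraries.

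**Figure D5:**
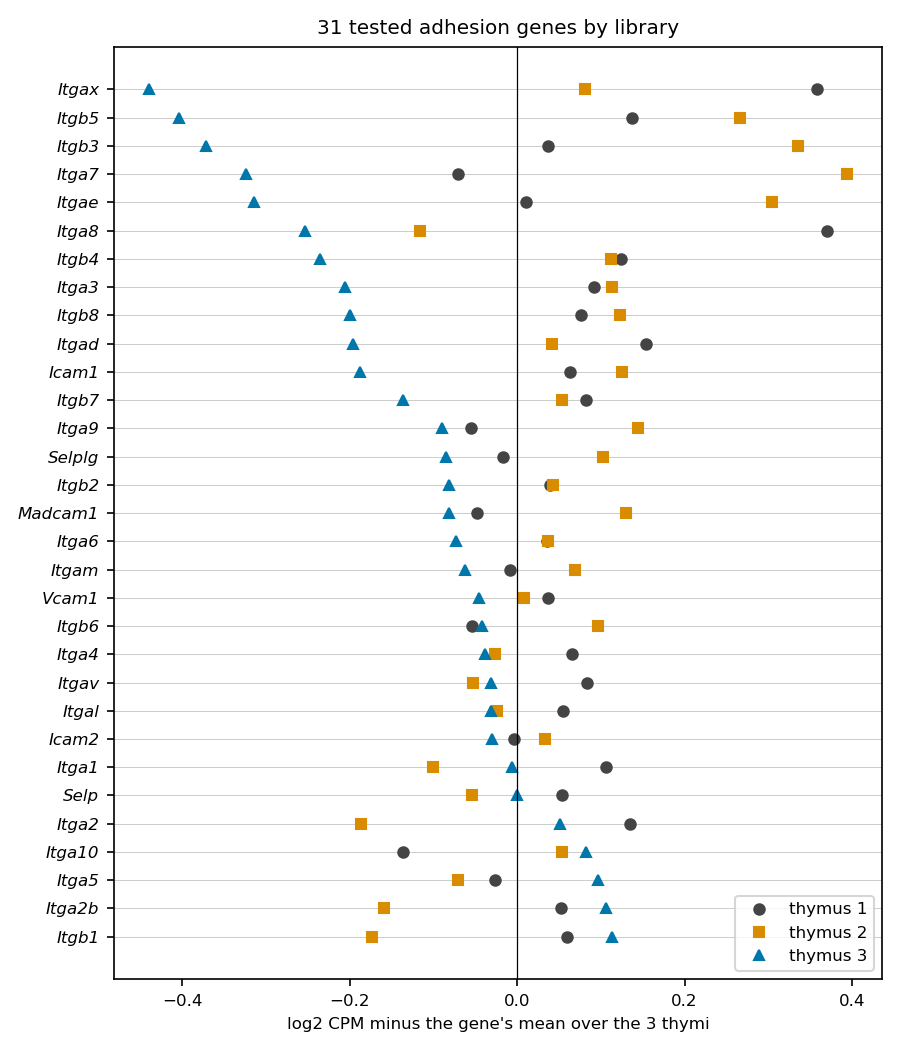
Deviation of log2 CPM from the gene's mean over the 3 thymi, 1 symbol per thymus, for the 31 tested adhesion genes in the order of their value in thymus 3. Itgax, Itgb5 and Itgb3 lie farthest below 0 in thymus 3, and Itgb1 highest above it.

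Markers of other cell types moved between the libraries as well, and their part in the differences above was not tested. Over all genes 39.7% were lowest in thymus 3, a share that stands beside each such count below. All 13 macrophage and dendritic cell markers were lowest there. With the GC trend removed, 10 of the 13 were, beside 38.7% of all genes. Their summed levels were 1633, 1412 and 1320 CPM in thymus 1, 2 and 3, with none at 0. Itgax fell in the same order, as did other members such as Itgad, Itgal and Vcam1. Itgam, the chain of Mac-1 on myeloid cells, did not and was highest in thymus 2. With 109, 111 and 85 counts, however, its libraries did not differ beyond counting noise (adjusted p 0.865, edgeR, Poisson goodness of fit). The sums of B cell and mature single-positive markers below had this order too. The 12 endothelial markers summed to 37.3, 42.0 and 35.8 CPM, in the order of Itgb3, Itgb5 and Itgae, and also of Selplg and Icam1. Of the 12, 7 were lowest in thymus 3, 6 were highest in thymus 2 (38.0% of all genes) and 3 highest in thymus 3 (37.9%). Mature single-positive thymocyte markers summed to 1056, 1051 and 956 CPM. Of these 8 markers 7 were lowest in thymus 3 and 6 highest in thymus 2 (38.0% of all genes), as Itgb3, Itgb5 and Itgae were. Their median log2 deviations were 0.01, 0.16 and −0.18. All 5 B cell markers were lowest there too, with sums of 94.3, 85.8 and 71.5 CPM. Double-positive thymocyte markers summed to 13668, 13299 and 13931 CPM, and 2 of 10 were lowest in thymus 3. Thymic epithelial markers summed to 2193, 2231 and 2354 CPM with 6 of 10 lowest in thymus 3, and mesenchymal markers to 239, 218 and 247 CPM with 4 of 9 lowest there. Platelet and megakaryocyte markers were nearly absent, with 8 of 10 below 1 CPM in every library and sums of 15.3, 9.63 and 11.5 CPM. Neutrophil markers, 22.1, 19.2 and 46.2 CPM, were highest in thymus 3, and red cell markers, 1023, 47.2 and 224 CPM, in thymus 1. Skeletal muscle markers summed to 33.9, 33.1 and 35.7 CPM.

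The machinery that switches integrins on was expressed throughout. All 31 genes of the activation and adaptor list reached 1 CPM in every library, led per kilobase by Rap1b, a small GTPase that activates integrins, at 139 ± 10.2, Rasgrp1, an exchange factor of Ras downstream of the T cell receptor, at 99.9 ± 6.13, and Stk4, the kinase MST1, at 74.5 ± 4.78 CPM per kilobase. Of the 31, edgeR called 0 variable, 0 had an unadjusted p under 0.05, and 20 varied beyond counting noise, where 0.0604%, 4.42% and 43.4% of all genes did. In thymus 3, 21 of the 31 were lowest (39.7% of all genes).

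Related adaptor genes differed in level. Tln1, a talin that binds integrin beta tails, was at 39.9 ± 2.49 and Tln2 at 0.136 ± 0.0235 CPM per kilobase, and the kindlin Fermt3 at 37.1 ± 1.84 against 1.80 ± 0.113 for Fermt1. The parvin Parvg was at 69.4 ± 1.29, against 1.15 ± 0.153 for Parva and 0.956 ± 0.122 for Parvb. These genes were chosen after their values were seen.

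Of 27 genes of matrix and other ligands 23 reached 1 CPM in every library and 4 were below it in every library. The median of their levels was 1.53 CPM per kilobase, against 2.12 over the 35 members. The highest were C3, a complement protein that Mac-1 binds in its cleaved form, at 28.6 ± 1.30, Tgfb1, whose latent form binds alpha-v integrins, at 14.0 ± 2.47, and the matrix protein tenascin-C, Tnc, at 9.46 ± 0.521 CPM per kilobase. Of the 24 tested, edgeR called 0 variable, 1 (Tgfb1) had an unadjusted p under 0.05, 13 varied beyond counting noise and 17 were lowest in thymus 3, beside 0.0604%, 4.42%, 43.4% and 39.7% of all genes.

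Of 23 other Ig-family adhesion genes all reached 1 CPM in every library. Cd48 and Cd2, which bind each other on leukocytes, led with 89.9 ± 16.2 and 83.2 ± 4.42 CPM per kilobase, followed by Cd96, a receptor on T and NK cells, at 43.6 ± 2.94. Of these, edgeR called 0 variable, 1 (Cd48) had an unadjusted p under 0.05, and 12 varied beyond counting noise, beside shares over all genes of 0.0604%, 4.42% and 43.4%. Of the 15 selectin-related genes tested, edgeR called 0 variable, 0 had an unadjusted p under 0.05, and 7 varied beyond counting noise, beside the same shares over all genes.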

How the data were processed

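The authors deposited whole-number read counts for every gene, without normalization, for 3 control thymus libraries, made with a strand-keeping mRNA kit per the labels. Per the submitters' processing notes STAR 2.5.3a, DESeq2 and GRCm38 were used, and the layout is that of STAR's gene counting, which takes uniquely mapped reads. The annotation release is not given in the sources used here. Reverse-strand counts were used, from 25408442 to 30414788 per library. They were 66.4% to 69.1% of all reads, and the 4 summary lines that hold the rest entered no test. Of 52636 identifiers 52489 matched GENCODE M21.

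Analysis used R 4.3.3, edgeR 4.0.16, limma 3.58.1 and DESeq2 1.42.0. There is 1 group, so no contrast exists. An intercept-only robust quasi-likelihood fit covered 16548 genes (minimum count 10, total 15). It compared each gene's quasi-dispersion with the trend by a one-sided F test with 5.24 prior degrees of freedom. The fit was tried on simulated counts with the same dispersion for every gene and changes in 1 library. Those changes were larger than the differences seen in the tested members, so whether differences of that size would be called was not tested. Log2 CPM used a prior count of 2, and the GC trend was removed by lowess with span 0.3. Length is that of all exons joined. The labels do not say that the libraries come from separate animals, so p-values reflect the spread of these 3 samples alone, and that may be technical. The limit of 3 counts covers counting error only. Members, lists and tests were chosen with earlier results of these data known. All members are named. Of each pathway list the 3 highest per kilobase are named, apart from 1 gene not reported here, and other names are said to be chosen after their values were seen, or are the ligand Cdh1 and overlapping genes. Alternatives covered the count column, scaling, filter, prior, test, gene length, GC content and each library left out, though not each for every result.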

Additional observations from a re-analysis of the deposited data

Results flagged for a closer look

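Reads on the strand opposite to a member were outside the main measurement, and 9 members had more than 3 of them in every library. Groups of 3 are too small for a test of single samples. As a percent of a gene's reads of both strands over the 3 libraries, they made up 7.85% at Itgae, 6.19% at Itgb4, 2.35% at Itga3, 2.23% at Itga4, 0.458% at Icam2, 0.392% at Itgb1, 0.386% at Itgav, 0.234% at Selplg and 0.0574% at Itgal. Higher percents stood at members with few reads, 50% at Sele, 14.0% at Icam5 and 13.3% at Itga11. Sele had 4, 4 and 3 opposite-strand reads beside 6, 3 and 2 counted ones. Over all genes the percent of opposite-strand reads was 3.37%, 3.40% and 3.44% in thymus 1, 2 and 3. At Itgae the opposite-strand reads numbered 42, 50 and 53, and in GENCODE M21 no opposite-strand exon overlaps the exons of Itgae. Genes within its introns were not looked for. At Itga4 exons of Cerkl overlap on the opposite strand over 1124 bases, and at Itgb4 those of B230344G16Rik over 537 bases.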

How the results depend on the processing

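The number of genes called more variable than the trend, 10, was 20 with library totals, 295 with no filter on low counts and 23 to 137 with 1 library left out. Dispersion outliers of DESeq2 numbered 81, and a negative binomial goodness of fit called 122. The number of members called, 0, was 1 with no filter and 0 under the other alternatives. With 1 library left out, the genes beyond counting noise, 7188, numbered 3768 to 6579, and the members, 17, numbered 8 to 14. The cause of these changes was not tested. By the longest coding transcript the ratios were 1.28 for Itgal to Itgb2, 1.36 for the 4 partners to Itgb2, 0.377 for Itga4 to Itgb1, 1.27 for Itga4 to Itgb7, 0.297 for Itga6 to Itgb1 and 1.44 for Itgav to Itgb3. In the unstranded column Itga4 to Itgb1 was 0.241 and Itga4 to Itgb7 0.786, and without shared stretches the second was 0.990. Itga4 shares its stretches mainly with Cerkl on the opposite strand. Reverse-strand counts keep the reads there, so 0.990 overstates that ratio. In the unstranded column Icam4 was at 0, since its exons overlap an antisense gene, and 8 of 35 levels moved by more than their SD. The counts of members at 1 CPM or more and below it kept within 1.5 times under the alternatives run for each. The 10 highest members stayed the same genes under theirs. The count lowest in thymus 3, 22, was 23 with the GC trend removed, the only alternative run for it. Whether that count depends on the scaling or the count column was not tested. No paired analysis was possible because there is 1 group.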
